A study of Mus musculus with 12 samples.

Results

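The laminin chains examined here are the products of 9 genes, the alpha chains Lama1 to Lama5, the beta chains Lamb1, Lamb2 and Lamb3, and the gamma chain Lamc1. They were chosen by gene symbol, and each of the 9 had 1 probe set among the 22180 genes measured. The RNA was extracted from embryonic mouse lung (E14.5). The first group of 4 specimens had the genotype Yy1flox/flox;Shh+/Cre (Yy1 mutants), the second group of 4 had Dicerflox/flox;Shh+/Cre (Dicer mutants), and the 4 controls were Shh+/Cre. All 12 specimens thus carried the Shh-Cre allele, which drives recombination in cells that express Shh, mainly the airway epithelium in lung, so the surrounding mesenchyme, vessels and blood cells keep the floxed gene. Values are log2 intensities, on which a difference of 1 is a 2-fold change.

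Laminins are large secreted proteins of basement membranes, the sheets of matrix on which epithelial, endothelial and muscle cells rest. Each is a trimer of 1 alpha, 1 beta and 1 gamma chain, and its name lists the chains in that order, so laminin-111 holds alpha 1, beta 1 and gamma 1. The gamma 1 chain is shared by most trimers, while alpha 3 and beta 3 join in a trimer that anchors epithelia through hemidesmosomes. The alpha chain carries the main sites for cell receptors such as integrins and dystroglycan. In the developing lung, laminins lie between the branching epithelium and the mesenchyme, and mice without alpha 5 fail to form normal lung lobes.

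The labels do not say whether specimens came from separate litters or were pools, so the p-values measure only the spread between these specimens. Array medians lay between 5.99 and 6.08, and the 4 arrays per genotype limit the precision of every value. The Y-linked gene Eif2s3y read 7.99 in Yy1 mutant 2, 5.92 in Yy1 mutant 3 and 7.84 in Dicer mutant 4, against 3.73 to 4.48 in the controls, and each call of a chain on the deposited values is therefore also given without these arrays, called Y-high. Dicer1 was lower in Dicer mutants than in controls (log2 difference -0.61, SE 0.0953, adjusted p = 0.00127), whereas Yy1 differed by -0.19 in Yy1 mutants (SE 0.0680, adjusted p = 0.125) and did not pass the test. In whole-lung RNA, fewer cells of a type and less RNA per cell cannot be told apart.

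In Yy1 mutant lungs 4 of the 9 laminin chains fell, Lama3, Lamb3, Lama5 and Lamc1, and none was called higher. In Dicer mutant lungs Lama1, Lama3 and Lama4 rose and Lamb3 fell. Lama3 therefore had opposite signs in the mutants, and the direct comparison of Yy1 with Dicer mutants gave its widest gap, 3.33-fold. A gene counted as changed at an adjusted p under 0.05 over all genes in limma's moderated test. Of all genes, 6.61% were called in Yy1 mutants (3.84% lower, 2.77% higher) and 8.75% in Dicer mutants (3.97% lower, 4.78% higher). At an unadjusted p under 0.05, 1 chain was higher in Yy1 mutants. The share of all genes at an unadjusted p was not counted, so such counts, here and below, lack a background. The median difference over the 9 chains was -0.21 in Yy1 mutants, against 0.00161 over all genes, and 0.09 in Dicer mutants, against -0.03 over all genes. Both comparisons use the same 4 controls. Values of mutants and controls did not overlap for 7 of the 9 chains in Yy1 mutants, where 12.6% of all genes did so, and for 5 of the 9 in Dicer mutants, where 16.0% did so.

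**Figure D1:**
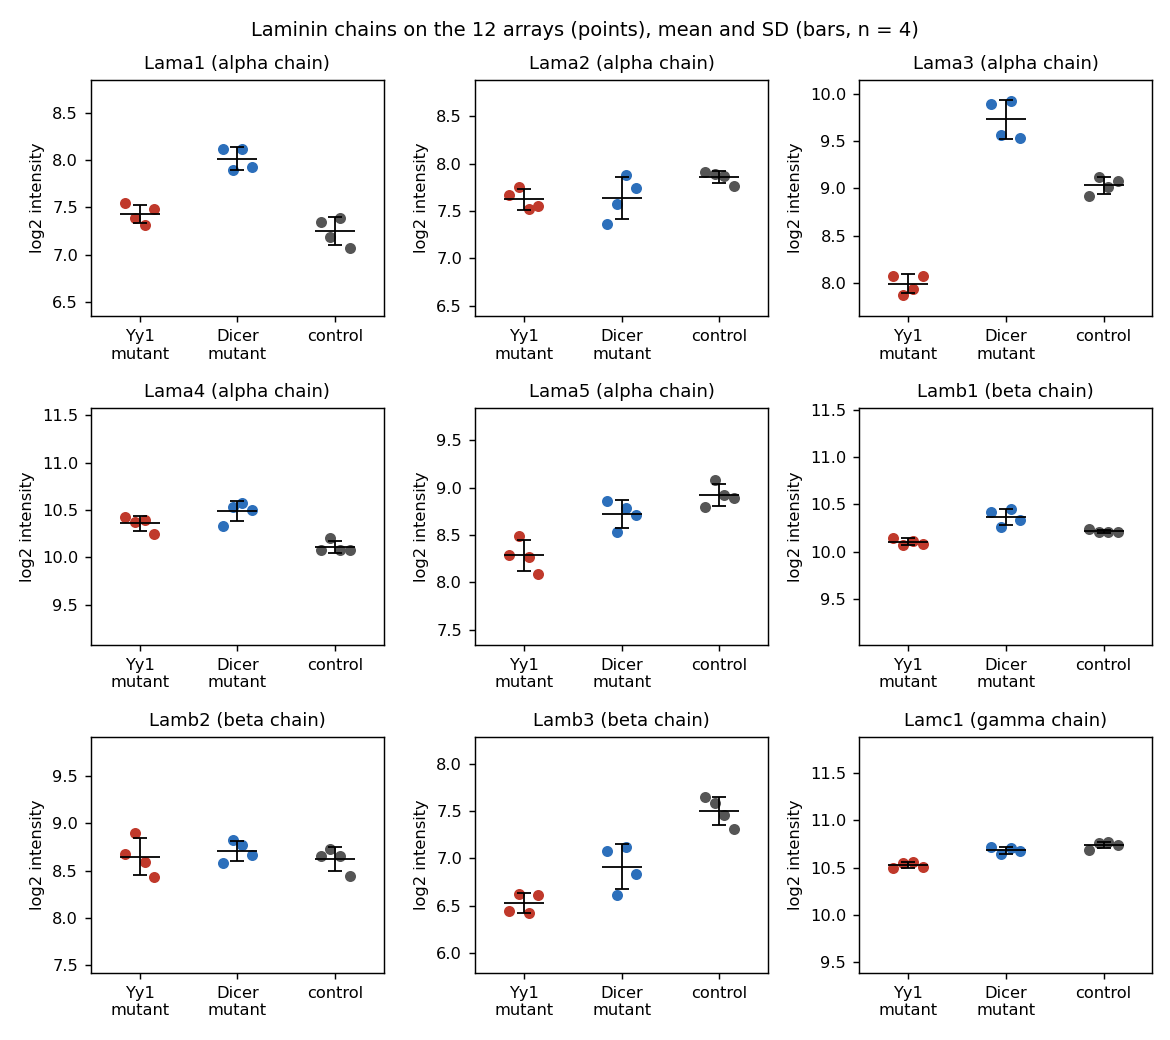
Log2 intensity of each of the 9 laminin chains on the 12 arrays. Points are single arrays, and black bars give the mean and SD of the 4 arrays of a genotype. Every panel spans the same range of log2 units, and Lama3 shows the widest separation, with the Yy1 mutants lowest, the controls between and the Dicer mutants highest.

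Lama3 encodes alpha 3, a chain of epithelial laminins such as laminin-311 and laminin-321. Its level read 8.08, 7.87, 7.94 and 8.08 in the 4 Yy1 mutants, 9.89, 9.57, 9.92 and 9.53 in the 4 Dicer mutants, and 8.91, 9.12, 9.02 and 9.07 in the 4 controls. The groups did not overlap. Lama3 fell 2.06-fold in Yy1 mutants (log2 difference -1.04, SE 0.0968, adjusted p = 2.73e-05) and rose 1.62-fold in Dicer mutants (0.70, SE 0.0968, adjusted p = 0.000553). Between the mutants the difference was -1.74 (SE 0.0968, adjusted p = 3.44e-07, and 0.000147 without the 3 Y-high arrays). Without the 3 Y-high arrays the differences from control were -0.96 (adjusted p = 0.00191) and 0.76 (adjusted p = 0.00202).

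Lama5 encodes alpha 5, the most widespread alpha chain of embryonic epithelia and the ligand of the receptor Bcam. It read 8.29, 8.49, 8.27 and 8.09 in Yy1 mutants, 8.86, 8.53, 8.78 and 8.71 in Dicer mutants, and 8.80, 9.08, 8.92 and 8.89 in controls. All Yy1 mutants lay below all controls and below all Dicer mutants, while Dicer mutants and controls overlapped. The gene fell 1.56-fold in Yy1 mutants (log2 difference -0.64, SE 0.0969, adjusted p = 0.00115, and 0.0104 without the 3 Y-high arrays). In Dicer mutants the difference was -0.20, with a 95% interval from -0.41 to 0.01 (adjusted p = 0.242). Yy1 mutants were lower than Dicer mutants by -0.44 on the log2 scale (SE 0.0969, adjusted p = 0.0183). That call was lost without Yy1 mutant 3 (adjusted p = 0.0525), Yy1 mutant 4 (0.0621), Dicer mutant 1 (0.0552) or Dicer mutant 3 (0.0590), and was at 0.0654 without the 3 Y-high arrays.

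Lama1 encodes alpha 1, the first alpha chain of embryonic basement membranes, which later is kept in few tissues. It read 7.54, 7.38, 7.32 and 7.48 in Yy1 mutants, 8.11, 7.89, 8.12 and 7.92 in Dicer mutants, and 7.34, 7.19, 7.39 and 7.08 in controls. Each Dicer mutant lay above every other array, and Yy1 mutants overlapped with controls. Lama1 rose 1.70-fold in Dicer mutants (log2 difference 0.76, SE 0.0870, adjusted p = 0.000116, and 0.00158 without the 3 Y-high arrays). In Yy1 mutants it differed by 0.18, with an interval from -0.01 to 0.37 (adjusted p = 0.278). Yy1 mutants were lower than Dicer mutants, at -0.58 (SE 0.0870, adjusted p = 0.00136, and 0.0495 without the 3 Y-high arrays). Relative to the control mean, the Lama1 value minus the Lama5 value of the same array stood at 0.82 ± 0.218 in Yy1 mutants, 0.96 ± 0.0732 in Dicer mutants and 0 ± 0.214 in controls (SD, n = 4), so that the balance of these chains lay toward Lama1 in both mutants.

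Lama4 encodes alpha 4, a chain with a short amino-terminal arm found around vessels and in mesenchyme. It read 10.43, 10.37, 10.39 and 10.24 in Yy1 mutants, 10.34, 10.53, 10.58 and 10.50 in Dicer mutants, and 10.08, 10.21, 10.07 and 10.07 in controls. All mutant arrays of either genotype lay above all controls. Lama4 rose 1.30-fold in Dicer mutants (log2 difference 0.38, SE 0.0708, adjusted p = 0.00434, and 0.0399 without the 3 Y-high arrays). In Yy1 mutants the difference of 0.25 (SE 0.0708) had an adjusted p = 0.0504, which fell under the threshold without control 2 (0.0416), Yy1 mutant 4 (0.0412) or Dicer mutant 1 (0.0348). For Yy1 mutants it was 0.308 without the 3 Y-high arrays. Lama2, the alpha 2 chain of muscle and nerve, read 7.52 to 7.75 in Yy1 mutants, 7.36 to 7.87 in Dicer mutants and 7.76 to 7.91 in controls. Its differences were -0.24 in Yy1 mutants (interval -0.45 to -0.02, adjusted p = 0.203) and -0.22 in Dicer mutants (interval -0.43 to -0.01, adjusted p = 0.208).

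**Figure D2:**
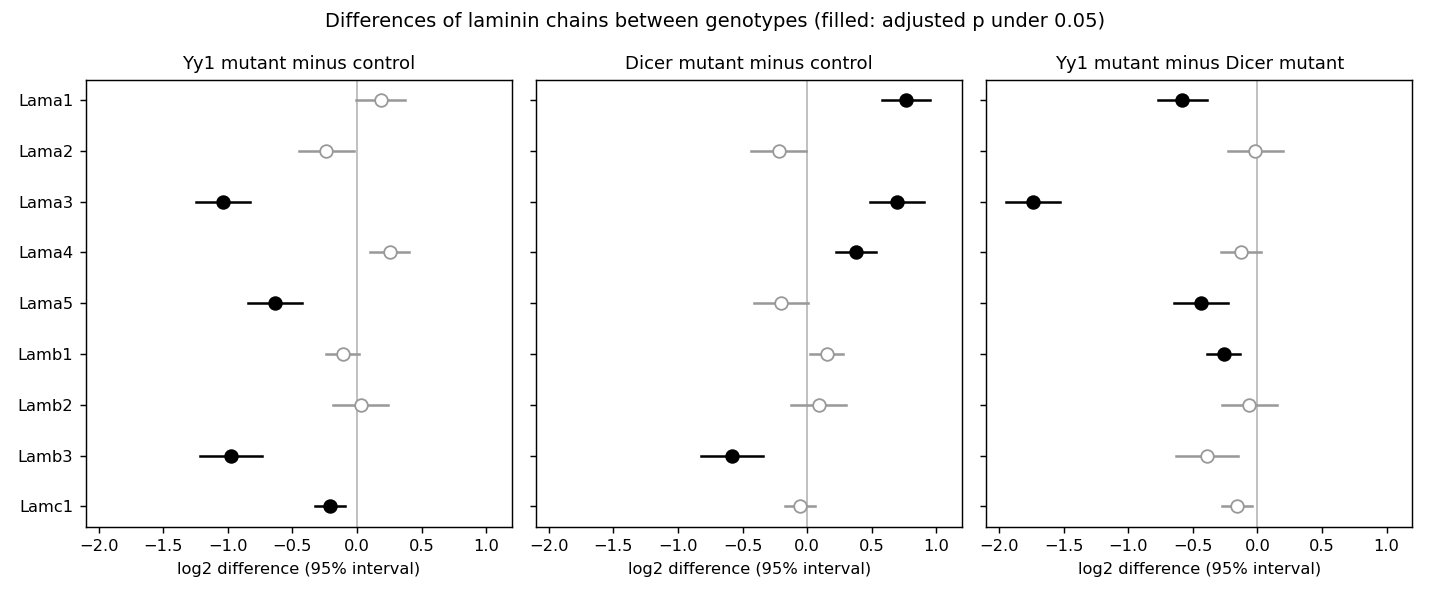
Log2 difference of each laminin chain for Yy1 mutants minus controls, Dicer mutants minus controls and Yy1 minus Dicer mutants. Points are the fitted differences, lines their 95% intervals from the model, and filled points have an adjusted p under 0.05 over all genes. Lama3 lies at -1.04, 0.70 and -1.74, whereas Lamb3 lies below 0 in all panels.

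Among the beta chains, Lamb3 fell in both mutants, and Lamb1 and Lamb2 were called in neither against controls. Lamb3 encodes beta 3, a chain that assembles with alpha 3 in epithelia. It read 6.44, 6.62, 6.43 and 6.61 in Yy1 mutants, 7.08, 6.62, 7.12 and 6.84 in Dicer mutants, and 7.65, 7.58, 7.46 and 7.31 in controls. All 8 mutant arrays lay below all controls. Lamb3 fell 1.96-fold in Yy1 mutants (log2 difference -0.97, SE 0.112, adjusted p = 0.000138) and 1.50-fold in Dicer mutants (-0.59, SE 0.112, adjusted p = 0.00499). Without the 3 Y-high arrays the adjusted p was 0.00773 and 0.0422. Between the mutants the difference was -0.39 (SE 0.112, adjusted p = 0.0667), and the mutants overlapped. Without Dicer mutant 2, the Dicer array with the lowest value, it was -0.49 (adjusted p = 0.0165). With all arrays kept it was called after quantile normalisation (0.0438) and without the dimmest genes (0.0365). It was also called with an intensity trend and robust prior (0.0349) and with array weights (0.0259). In 17 of 22 alternatives the difference stayed uncalled.

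Lamb1 encodes beta 1, the common partner of gamma 1. It read 10.08 to 10.15 in Yy1 mutants, 10.26 to 10.46 in Dicer mutants and 10.21 to 10.24 in controls, 3 ranges that did not overlap. The differences were small, -0.11 in Yy1 mutants (interval -0.24 to 0.02, adjusted p = 0.344) and 0.15 in Dicer mutants (interval 0.02 to 0.28, adjusted p = 0.157). Between the mutants Lamb1 differed by -0.26 (SE 0.0601, adjusted p = 0.0226), a call that was lost without Yy1 mutant 3 (0.0572), Yy1 mutant 4 (0.0644), Dicer mutant 1 (0.0616), Dicer mutant 3 (0.0815) or Dicer mutant 4 (0.0527) and stood at 0.220 without the 3 Y-high arrays. Lamb2 encodes beta 2, known from the neuromuscular synapse and the kidney filter. It read 8.44 to 8.90 in Yy1 mutants, 8.58 to 8.82 in Dicer mutants and 8.44 to 8.73 in controls. The groups overlapped, with differences of 0.03 (interval -0.18 to 0.24, adjusted p = 0.931) in Yy1 mutants and 0.09 (interval -0.12 to 0.30, adjusted p = 0.659) in Dicer mutants. Of all genes, 4.96% were called between the mutants (3.39% lower and 1.57% higher in Yy1 mutants), and of the 9 chains 4 were lower (Lama1, Lama3, Lama5 and Lamb1) and 0 were higher. At an unadjusted p under 0.05, 6 were lower and 0 higher, and the percentages of all genes above do not apply to that threshold. The count of 4 was 2 without Yy1 mutant 3, Yy1 mutant 4, Dicer mutant 1 or Dicer mutant 3.

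RefSeq start-site windows in GRCm38.p6, from 250 bases before to 50 bases after an annotated start, were matched for 5 of the 9 chains. The Lama5 window and the first Lamb3 window, of chains that fell together in Yy1 mutants, are shown beside that of Lamb1, which was not called against controls. Capitals mark matches, on either strand, to GGGCGG, the GC box bound by Sp1-family factors. The Lama5 window is chr2:180225810-180226109 on the minus strand, the Lamb3 window shown is chr1:193301744-193302043 on the plus strand, and the Lamb1 window is chr12:31265043-31265342 on the plus strand. Another Lamb3 window starts at 193301993. Both Lamb3 windows lie inside the annotated gene, which starts at 193294353, so they may not describe its main promoter.
Lama5: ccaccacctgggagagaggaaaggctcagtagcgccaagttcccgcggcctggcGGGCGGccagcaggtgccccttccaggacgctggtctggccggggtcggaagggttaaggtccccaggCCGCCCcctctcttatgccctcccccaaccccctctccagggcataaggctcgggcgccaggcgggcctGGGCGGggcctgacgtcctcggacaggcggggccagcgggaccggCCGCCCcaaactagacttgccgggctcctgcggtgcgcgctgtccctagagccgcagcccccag
Lamb3: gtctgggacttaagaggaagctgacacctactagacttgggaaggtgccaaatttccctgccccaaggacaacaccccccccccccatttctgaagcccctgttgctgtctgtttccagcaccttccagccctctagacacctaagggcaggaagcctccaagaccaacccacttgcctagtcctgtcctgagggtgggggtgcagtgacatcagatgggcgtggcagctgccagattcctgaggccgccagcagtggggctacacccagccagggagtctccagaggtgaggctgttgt
Lamb1: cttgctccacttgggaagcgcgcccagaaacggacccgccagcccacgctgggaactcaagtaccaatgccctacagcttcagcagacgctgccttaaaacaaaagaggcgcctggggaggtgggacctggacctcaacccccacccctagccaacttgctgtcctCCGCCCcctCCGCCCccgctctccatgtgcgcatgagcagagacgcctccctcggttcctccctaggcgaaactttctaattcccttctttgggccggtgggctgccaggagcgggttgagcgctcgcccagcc
The Lama5 window held 4 GC boxes and the Lamb1 window 2, and neither Lamb3 window held any. The windows of Lama2 and Lamb2, not shown and also not called against controls, held 1 and 0. No match to GCCATNTT, a core motif of Yy1, to TGANTCA, the motif of AP-1, or to TATAAA, the TATA box, was found on either strand in any of the 6 windows of the 5 chains. Of 32851 windows of the same length, 35.7% held a GC box, 6.05% the Yy1 core, 7.81% the AP-1 motif and 13.6% the TATA box. The GC content was 72.7% for Lama5, 59.3% for Lamb3, 63.7% for Lamb1, 50.3% for Lama2 and 44.0% for Lamb2. The median over all windows was 52.7%.

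Lamc1 encodes gamma 1, without which mouse embryos form no basement membranes. It read 10.50, 10.55, 10.56 and 10.50 in Yy1 mutants, 10.72, 10.64, 10.71 and 10.67 in Dicer mutants, and 10.69, 10.76, 10.77 and 10.74 in controls. Every Yy1 mutant lay below every other array. Lamc1 fell 1.16-fold in Yy1 mutants (log2 difference -0.21, SE 0.0544, adjusted p = 0.0326) and differed by -0.05 in Dicer mutants (interval -0.17 to 0.06, adjusted p = 0.620). The Yy1 call was lost without control 2 (0.0622), control 3 (0.0870), control 4 (0.0610), Yy1 mutant 1 (0.0946), Yy1 mutant 3 (0.0666), Yy1 mutant 4 (0.0821) or Dicer mutant 4 (0.0548), and without the 3 Y-high arrays (0.150). With only the 8 arrays compared in the fit the adjusted p was 0.0951.

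To ask which chains changed unequally to the shared gamma chain, the Lamc1 value of the same array was subtracted from every gene and the fit was repeated. In Yy1 mutants Lama3 (-0.83, adjusted p = 6.23e-05), Lamb3 (-0.76, adjusted p = 0.000336) and Lama5 (-0.43, adjusted p = 0.00352) fell relative to Lamc1, where 39.9% of all genes were called but 1.64% were called lower. Lama4 (0.46, adjusted p = 0.00108) and Lama1 (0.39, adjusted p = 0.00643) rose relative to it, but 38.3% of all genes were called higher on this scale. In Dicer mutants Lama1 (0.82, adjusted p = 4.87e-05), Lama3 (0.75, adjusted p = 0.000135) and Lama4 (0.43, adjusted p = 0.00258) rose relative to Lamc1, with 8.23% of all genes called and 6.06% called higher. With Lamb1 subtracted in place of Lamc1, the Lama4 difference in Dicer mutants was 0.23 (adjusted p = 0.0550) and was not called. Lamb3 fell relative to Lamc1 in Dicer mutants (-0.53, adjusted p = 0.00607), with 2.16% called lower. Lamb1, the usual partner of gamma 1, differed from it by 0.10 (interval -0.04 to 0.24, adjusted p = 0.220) in Yy1 mutants and by 0.20 (interval 0.06 to 0.35, adjusted p = 0.0775) in Dicer mutants. Between the mutants Lama3 (-1.58, adjusted p = 2.24e-07), Lama1 (-0.42, adjusted p = 0.00841) and Lama5 (-0.28, adjusted p = 0.0335) were lower relative to Lamc1 in Yy1 than in Dicer mutants, with 27.1% of all genes called and 2.10% called lower. None was called higher, where 25.0% of all genes were called higher at an adjusted p under 0.05. None was higher at an unadjusted p under 0.05 either. Lama5 lost this call without Yy1 mutant 1 (0.0601), Yy1 mutant 3 (0.0711), Yy1 mutant 4 (0.0943), Dicer mutant 1 (0.0760), Dicer mutant 3 (0.0786) or Dicer mutant 4 (0.0666). Without the 3 Y-high arrays the adjusted p was 0.0896 for Lama1 and 0.0863 for Lama5, which left 1 chain, Lama3, called lower. With Lamb1 subtracted in place of Lamc1, Lama5 had an adjusted p = 0.110 between the mutants.

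Lama3 and Lamb3, whose products assemble together, moved alike in Yy1 mutants and apart in Dicer mutants. Relative to the control mean, the Lama3 value minus the Lamb3 value of the same array stood at -0.07 ± 0.160 in Yy1 mutants, 1.28 ± 0.105 in Dicer mutants and 0 ± 0.204 in controls (SD, n = 4). The 4 Dicer mutants ran from 1.16 to 1.42, above the range of the Yy1 mutants (-0.28 to 0.10) and of the controls (-0.26 to 0.23). This is a description of the balance between the chains, without a test.

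For the trimers that hold gamma 1, the values were centred on the control mean and averaged over the 3 chains of each trimer on every array, also as a description without a test. Trimer protein was not measured. The alpha 3 trimers, laminin-311 and laminin-321, averaged -0.45 ± 0.0308 and -0.41 ± 0.0476 in Yy1 mutants and 0.26 ± 0.108 and 0.24 ± 0.0746 in Dicer mutants. The alpha 5 trimers were lower in Yy1 mutants, at -0.32 ± 0.0614 for laminin-511 and -0.27 ± 0.124 for laminin-521, and near the control mean in Dicer mutants, at -0.04 ± 0.0875 and -0.06 ± 0.0404. Laminin-111 averaged -0.05 ± 0.0293 in Yy1 mutants and 0.29 ± 0.0804 in Dicer mutants. For the alpha 4 trimers the averages were -0.02 ± 0.0390 (laminin-411) and 0.02 ± 0.0884 (laminin-421) in Yy1 mutants, and 0.16 ± 0.0470 and 0.14 ± 0.0623 in Dicer mutants. In the alpha 2 trimers they were -0.19 ± 0.0385 (laminin-211) and -0.14 ± 0.102 (laminin-221) in Yy1 mutants, and -0.04 ± 0.0878 and -0.06 ± 0.0953 in Dicer mutants. In none of these trimers were all 3 chains called higher in Dicer mutants or lower in Yy1 mutants. This follows from the beta chains alone, because each trimer holds beta 1 or beta 2, and neither Lamb1 nor Lamb2 was called against controls. The averages hide unequal chains. Chain differences in Yy1 mutants spanned 0.93 in laminin-311, 1.07 in laminin-321, 0.53 in laminin-511 and 0.66 in laminin-521. Those in Dicer mutants spanned 0.75 in laminin-311 and in laminin-321, and 0.82 in laminin-111.

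**Figure D3:**
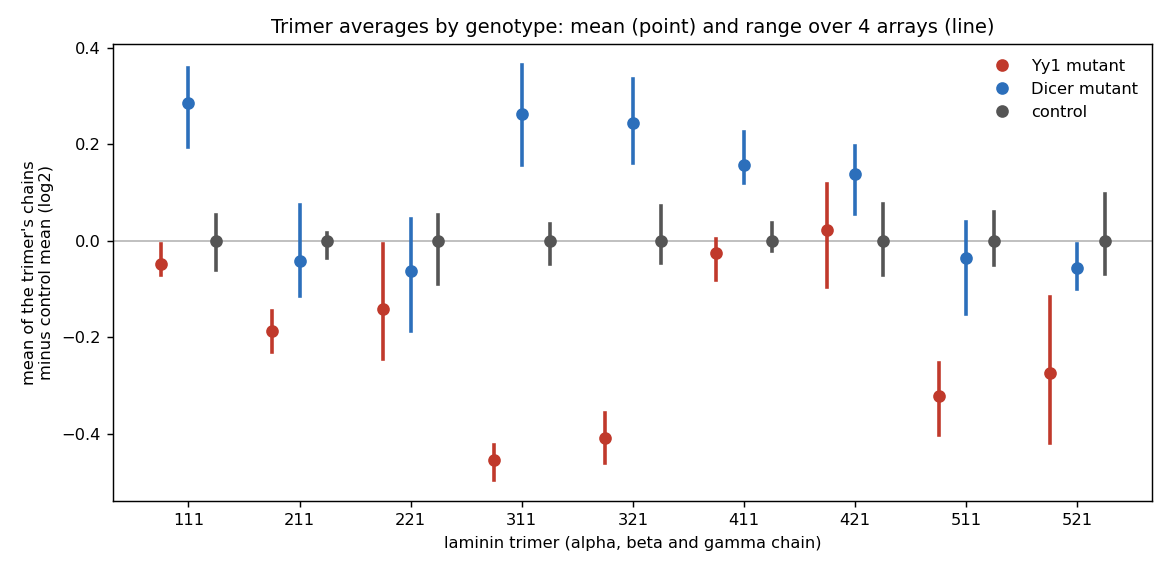
Mean of the 3 chains of each laminin trimer with gamma 1 after centring each chain on its control mean, in log2 units. Points are means and lines the range over 4 arrays for Yy1 mutants, Dicer mutants and controls. The trimers with alpha 3 lie below the controls in Yy1 mutants and above them in Dicer mutants.

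Markers of the epithelium, the tissue targeted by Cre, mostly fell in both mutants. Of 14 epithelial markers 11 fell in Yy1 mutants (median log2 difference -0.62) and 10 fell in Dicer mutants (median -0.36), and 0 rose in either, also at an unadjusted p under 0.05. The mean log2 level over the 14 markers ran from 8.01 to 8.36 in Yy1 mutants, 8.30 to 8.52 in Dicer mutants and 8.78 to 9.06 in controls. Their part in the chain results was not tested. On a scale added after the values were seen, the median of these markers on each array was subtracted from every gene, which shifted the median of all genes to 0.66 in Yy1 mutants and 0.36 in Dicer mutants. On it, Lama5 differed by 0.0190 (SE 0.107, adjusted p = 0.862) in Yy1 mutants, where 96.9% of all genes were called higher. Lama3 (-0.38, adjusted p = 0.00835) and Lamb3 (-0.32, adjusted p = 0.0218) were lower in Yy1 mutants on this scale, where 0.370% of all genes were called lower. In Dicer mutants Lama3 stood at 1.08 (adjusted p = 5.25e-06), with 60.9% of all genes called higher, and Lamb3 at -0.20 (adjusted p = 0.157).

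**Figure D4:**
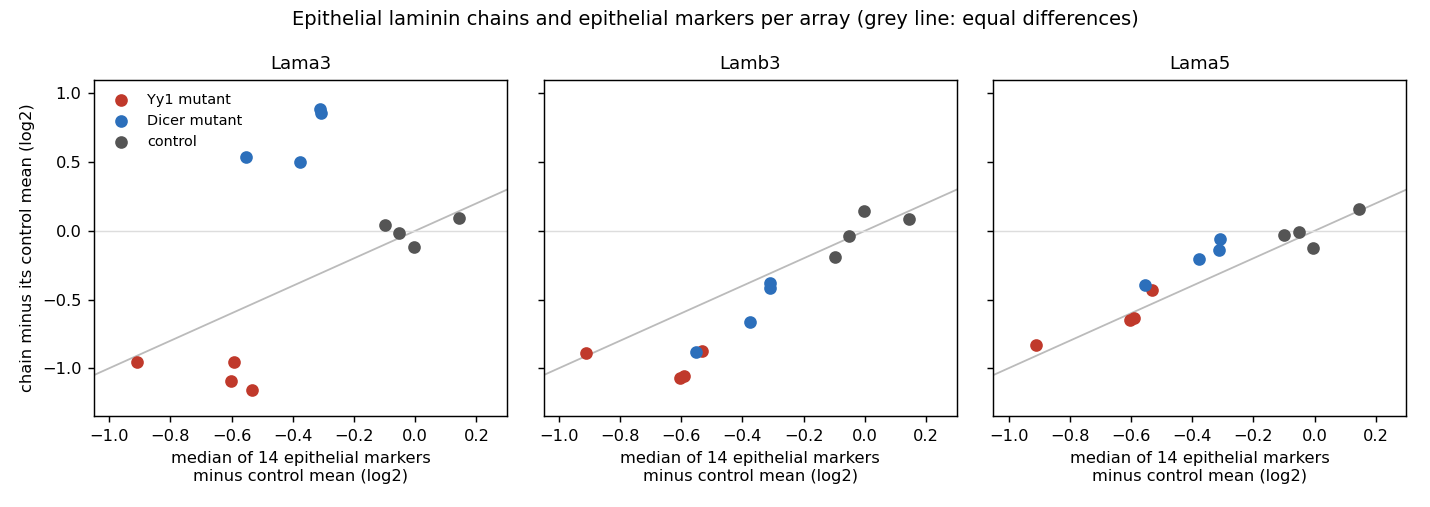
Lama3, Lamb3 and Lama5 minus their control means (vertical axis, log2) against the median of 14 epithelial markers minus their control means (horizontal axis, log2), with 1 point per array. On the grey line chain and markers differ equally from control. Lama5 lies near the line in Yy1 mutants and above it on all 4 Dicer mutant arrays, Lamb3 lies below it on 7 of the 8 mutant arrays, and Lama3 lies below it in Yy1 mutants and far above it in Dicer mutants.

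Other cell types also differed. Endothelial markers, of interest beside the vessel chain Lama4, rose in 7 of 8 genes in Dicer mutants (median 0.45) and in 1 of 8 in Yy1 mutants (median 0.11). Their mean log2 level was 9.29 to 9.54 in Yy1 mutants, 9.72 to 9.81 in Dicer mutants and 9.20 to 9.50 in controls. Of 8 mesenchymal markers, 6 rose in Yy1 mutants (median 0.51) and 5 in Dicer mutants (median 0.35). Mesothelial markers rose in 1 of 4 genes in Yy1 mutants (median 0.13) and 2 of 4 in Dicer mutants (median 0.28). Smooth muscle markers fell in 7 of 8 genes in both mutants (medians -1.43 in Yy1 and -1.32 in Dicer mutants). Macrophage markers rose in 5 of 6 genes in both (medians 0.48 and 0.69 for Yy1 and Dicer mutants). Of 7 skeletal and heart muscle markers and 3 measured Schwann cell and nerve markers, 0 were called in either mutant, also at an unadjusted p under 0.05. The mean log2 level over the 7 muscle markers ran from 5.96 to 6.76 in Yy1 mutants and 5.89 to 7.20 in Dicer mutants. In controls it ran from 6.23 to 6.35, so mutant arrays varied more, and the lack of calls does not show equal levels. Of 3 measured markers of oesophagus and skin epithelium, 0 were called in Yy1 mutants, where 2 were lower at an unadjusted p under 0.05, and 1 fell in Dicer mutants. Whether these shifts contribute to the laminin values was not tested.

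Of 24 genes listed as laminin partners, receptors and modifying enzymes, 21 were measured. In Yy1 mutants 4 fell and 0 rose (median -0.09), with 1 higher at an unadjusted p under 0.05. In Dicer mutants 5 rose and 1 fell (median 0.08). Bcam, the Lutheran receptor that binds alpha 5, fell in both, to 8.81 ± 0.182 in Yy1 mutants and 9.14 ± 0.119 in Dicer mutants, against 9.66 ± 0.262 in controls (adjusted p = 0.000825 and 0.0173). Ntn4, a netrin that binds gamma 1 and opens laminin networks, fell by 0.74 on the log2 scale in Yy1 mutants (adjusted p = 0.00107) and differed by -0.37 in Dicer mutants (adjusted p = 0.0599). Col18a1, the collagen that gives rise to endostatin, fell by 0.52 in Yy1 mutants (adjusted p = 0.00911). Dag1, which encodes dystroglycan, fell by 0.46 there (adjusted p = 0.0195).

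The partners that rose in Dicer mutants included the integrin subunits Itga2 (0.56, adjusted p = 4.08e-05), which pairs into a collagen and laminin receptor, and Itga6 (0.32, adjusted p = 0.0138), which pairs into laminin receptors. The crosslinker Nid2 (0.31, adjusted p = 0.0134) and the collagen IV chains Col4a1 (0.30, adjusted p = 0.0372) and Col4a2 (0.27, adjusted p = 0.0347) rose as well. Itga2 averaged 9.28 ± 0.0473 in Yy1 mutants, 9.84 ± 0.0557 in Dicer mutants and 9.28 ± 0.0166 in controls. In Yy1 compared with Dicer mutants, 0 partners were higher, also at an unadjusted p under 0.05, and Itga2, Itga6, Col4a1, Col4a2 and Col18a1 were lower, with differences of -0.42 to -0.61. Lamc3, another gamma chain, differed by 0.03 in Yy1 mutants (adjusted p = 0.906) and -0.01 in Dicer mutants (adjusted p = 0.965).

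For each chain called against controls, the genes with the most similar pattern over the 12 arrays were found by the root mean square difference of values centred on each gene's mean. For Lama3, which varied around its own mean by 0.724, they were Epha4 (0.195), Slc39a8 (0.201) and Clic6 (0.209). For Lama5 (0.293) they were Irx2 (0.0521), Grhl2 (0.0629), one of the 14 epithelial markers, and Nexmif (0.0631), and for Lamb3 (0.427) Irx5 (0.109), Unc5d (0.119) and Irx3 (0.128). For Lama1 (0.342) they were Igtp (0.127), Arhgap18 (0.131) and Fam43a (0.135). For Lama4 (0.174) they were Gpcpd1 (0.0559), Yipf4 (0.0562) and Gulp1 (0.0573), and for Lamc1 (0.0947) Ivns1abp (0.0443), Kif5b (0.0479) and Ddx5 (0.0503). Among the chains, the one most like Lamb3 was Lama5 (0.223, rank 71 of 19396 genes compared). Lama3, with which beta 3 assembles, came at rank 18856 (0.636). The measure is not scaled, so a rank also depends on how widely each gene varied. Among the genes compared with Lama3, which varied more, Lamb3 came at rank 1044 with the same difference.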

How the data were processed

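Whole-lung RNA was hybridised to Affymetrix arrays with 1 biotin label, per the labels. The deposited values are log2 intensities per probe set, with array medians nearly equal, as after normalisation by the authors. The method, software and build they used are not stated in the labels. Base 2 is inferred from the range of 1.10 to 13.6. Of 41345 probe sets, 23521 had exactly 1 gene symbol in the platform annotation, and for genes with several the probe set with the highest mean was kept, which gave 22180 genes. No filter or further normalisation was applied.

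All 3 genotypes were fitted together with limma 3.58.1 in R 4.3.3 (9 residual degrees of freedom, empirical Bayes, two-sided, Benjamini-Hochberg over all genes). The fit was tested on simulated data. Figures used Python 3.11.15, pandas 2.3.3, numpy 2.4.6 and matplotlib 3.10.9. Named genes are the chains, the targeted genes, partners called or needed for a trimer, and the 3 genes nearest to each called chain, without predicted genes and Riken clones. The chains, lists and tests were chosen with earlier results of these data known. One listed item is not reported here. The scale relative to epithelial markers was added after the values were seen. Alternatives changed the scaling, the dim-gene filter, the probe sets averaged, the variance prior, the arrays fitted, the array weights and a replicate block.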

Additional observations from a re-analysis of the deposited data

Results flagged for a closer look

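In 2 of 27 combinations of chain and genotype, 1 array stood apart from the other 3, by a gap above Dixon's 95% critical value for 4 samples. Chance alone marks about 1 group in 20. Lama4 read 10.21 in control 2, the highest of the controls, whose lowest value was 10.07, and the gap made up 0.981 of the range. Lamb1 read 10.24 in control 1, against a lowest control value of 10.21, with a gap of 0.833 of a very narrow range.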

How the results depend on the processing

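Of 24 single-chain calls, on the deposited values or relative to Lamc1, 15 held in all their alternatives. Among them, on the deposited values, were Lama3 in each comparison, Lamb3 in Yy1 mutants and Lama1 and Lama4 in Dicer mutants. The number of chains called higher in Yy1 mutants was 1 in place of 0 after quantile normalisation, without the dimmest 30% of genes, with an intensity trend and robust prior, and with array weights, and 0 to 1 with 1 array left out. That of chains lower in Yy1 than in Dicer mutants was 2 to 5 with 1 array left out, against 4, and 2 without the 3 Y-high arrays. Relative to Lamc1 it was 2 to 4 and 1, against 3. Fits with only the compared groups moved no count of chains by over 1.5 times. Averaging probe sets is no check of the chains. Each had 1 probe set, so its values and differences could not change. With the replicate number as a block, Lamc1 in Yy1 mutants lost its call (adjusted p = 0.0646), and among the calls on the unscaled values no other was lost. Relative to Lamc1, Lamb2 in Yy1 mutants gained one (0.0443). Deviations from the genotype means correlated at -0.161 to 0.190 in the 12 pairs of same-numbered arrays and at -0.259 to 0.214 in the 36 other pairs between genotypes. Not every array correlated best with its own number, and the labels do not say what equal numbers mark.

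On the scale relative to the epithelial markers, which moves all genes up, 2 chains were lower and 6 higher in Yy1 mutants, 0 lower and 6 higher in Dicer mutants, and 1 lower in Yy1 than in Dicer mutants. Of all genes, 96.9% were called higher and 0.370% lower in Yy1 mutants on it, 60.9% higher in Dicer mutants, and 1.06% lower in Yy1 than in Dicer mutants, so the counts of higher chains are no result about the chains. It turned the sign of Lama2 (0.42), Lama5 (0.0190), Lamb1 (0.54) and Lamc1 (0.44) in Yy1 mutants, of Lama2 (0.16), Lama5 (0.18) and Lamc1 (0.33) in Dicer mutants, and of Lama2 (0.26), Lama4 (0.14), Lamb1 (0.0103), Lamb2 (0.21) and Lamc1 (0.11) between the mutants. With Lamb1 subtracted in place of Lamc1, 3 chains were lower in Dicer mutants, where 23.2% of all genes were, and 1 was higher in Yy1 than in Dicer mutants, where 62.5% of all genes were. Lamb2 stood at -0.0603 in Dicer mutants, and the calls of Lama4 in Dicer mutants (adjusted p = 0.0550) and Lama5 between the mutants (0.110) were lost. Signs of differences near 0 turned for Lamb2 in Yy1 mutants (-0.0551 to 0.10 with 1 array left out, -0.0655 without the 3 arrays), for Lama2 between the mutants (0.0128 after quantile normalisation, -0.11 to 0.0622 with 1 array left out, 0.00581 without the 3 arrays), and for Lamb2 between the mutants (-0.14 to 0.00905). Relative to Lamc1 they turned for Lama2 in Yy1 mutants (-0.0597 to 0.0195) and Lama4 between the mutants (-0.0306 to 0.0604). The cause was not tested.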
